A study of Homo sapiens with 14 samples.

Results

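The genes described here are 41 human genes of DNA break repair. They were taken by name from 6 roles: break sensing and checkpoint signalling, classical end joining, single-strand break repair with alternative end joining, homologous recombination, the Fanconi anaemia pathway, and mismatch repair. The rule for membership uses gene names and no measured value, though the roles were drawn up with earlier results of these data known. All 41 were listed in both of the authors' deposited tables, among 12202 genes listed in either of them. The samples were 14 RNA libraries of teloHAEC, a telomerase-immortalised line of human aortic endothelium. The deletion arm held 3 libraries of cells electroporated with Cas9 complexes whose guides flank an enhancer of CALCRL, and 3 of cells given a Cas9 complex with a control guide against HPRT, all collected 2 days later. The labels name no selection of clones. The siRNA arm held 4 libraries of cells transfected with siRNA to CALCRL and 4 of cells that received a scrambled siRNA, all lysed after 24 hours. Both groups of the deletion arm received Cas9 and neither group of the siRNA arm did, so no comparison set cut cells against uncut cells. Nothing in the labels says that replicates came from separate cultures, so p-values measure only the spread between these libraries, which may be technical.

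A double-strand break, such as the one Cas9 makes, is sensed by the MRE11-RAD50-NBS1 complex, which activates the kinase ATM. ATM signalling through MDC1 recruits the ubiquitin ligases RNF8 and RNF168, whose marks on chromatin bring in 53BP1 and the BRCA1-BARD1 complex. The ends are then joined directly by the Ku proteins, DNA-PKcs and ligase IV, copied from the sister chromatid by homologous recombination in S and G2 phase, or joined by a back-up route that uses PARP1, XRCC1 and ligase III. The Fanconi proteins act on crosslinked DNA and stalled forks, and the mismatch repair proteins on mispaired bases. Many recombination genes are transcribed most strongly in S phase, under E2F factors.

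Short promoter stretches are shown for 3 genes of single-strand break repair, because they belong to the 1 role whose members all lay above 0 after the deletion, and each carries the same word. The search covered TTCCCGC and TTGGCGC, the cores of a common E2F site, on both strands of RefSeq promoters of GRCh38.p14, from 250 bases before to 50 after the start. A match was found in 16 of the 36 repair genes with an entry (44.4%), in 15.3% of the 8437 genes tested in the deletion arm with an entry, and in 9.33% of all 27305 promoters. The stretches below, from chr1:226408093-226408122, chr14:20343564-20343593 and chr19:43575640-43575669, are written 5′ to 3′ in the direction of the gene, which is minus, plus and minus, with the word in capitals.
PARP1: ttccgtgggcgTTCCCGCggccaggcatca
PARP2: cgcgctgggtgTTCCCGCctagtgacactg
XRCC1: acgcagcgctcTTCCCGCtctggagaggcg
RNF168, MRE11A, LIG3 and BRCA1 had no match in this window. Across repair genes with an entry, the median log2 fold change after the deletion was 0.38 with a match and 0.09 without, against 0.02 and -0.01 for all genes tested. With the trend on GC content (described below) removed, that gap among the repair genes was gone. The middle values were then XRCC3 at 0.23 and MSH3 at 0.28 with a match, and XRCC4 at 0.25 and EXO1 at 0.29 without. Of the 16 with a match 14 were above 0, and FANCL and FANCG, at -1.25 and -1.01 per the authors' deposited table, were below. Of all 41 repair genes 27 were above 0, and of all genes tested 50.3%. With the GC trend removed, XRCC2, BLM and FANCC, which have a match, were also below 0, at -0.03, -0.12 and -0.27. XRCC4 and LIG4, without a match, were then above 0, at 0.25 and 0.19. In the siRNA arm the medians of the repair genes were -0.04 with a match and -0.07 without.

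The depth of single libraries is unknown, because the tables hold no value per library. Mean normalised counts of the repair genes in the authors' deposited tables ran from 23.5 (PMS2) to 2961 (XRCC5) for the deletion and from 16.1 to 2008 for siRNA. The median standard error of their log2 fold change was 0.31 for the deletion and 0.17 for siRNA. A call needed a Wald statistic (fold change over its standard error) of at least 2.66 in the deletion arm and 3.13 in the siRNA arm. For a typical repair gene this meant a log2 fold change of 0.84 after the deletion and 0.53 under siRNA. Relative to genes of like mean count, the standard errors of the repair genes were 0.739 to 1.40 times as large after the deletion and 0.679 to 1.33 times under siRNA. Of 13 endothelial markers 12 were tested, 6 above 0 and 6 below after the deletion, and 4 above and 8 below under siRNA. The authors' deposited table called CDH5 (-1.44, SE 0.35) and KDR (-1.05, SE 0.31) lower after the deletion and EGFL7 (-0.46, SE 0.11) lower under siRNA, and none higher. Of 6 smooth muscle markers 2 were tested, ACTA2 and TAGLN, and neither was called in either arm. Their means were 225 and 182 normalised counts in the siRNA arm and 182 and 30.7 in the deletion arm. None of 6 fibroblast and 6 leukocyte markers was tested in either arm. Of 6 epithelial markers 3 were tested, and the authors' deposited table called KRT18 higher after the deletion (1.13, SE 0.30). The part of all these markers in the results below was not tested.

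**Figure D1:**
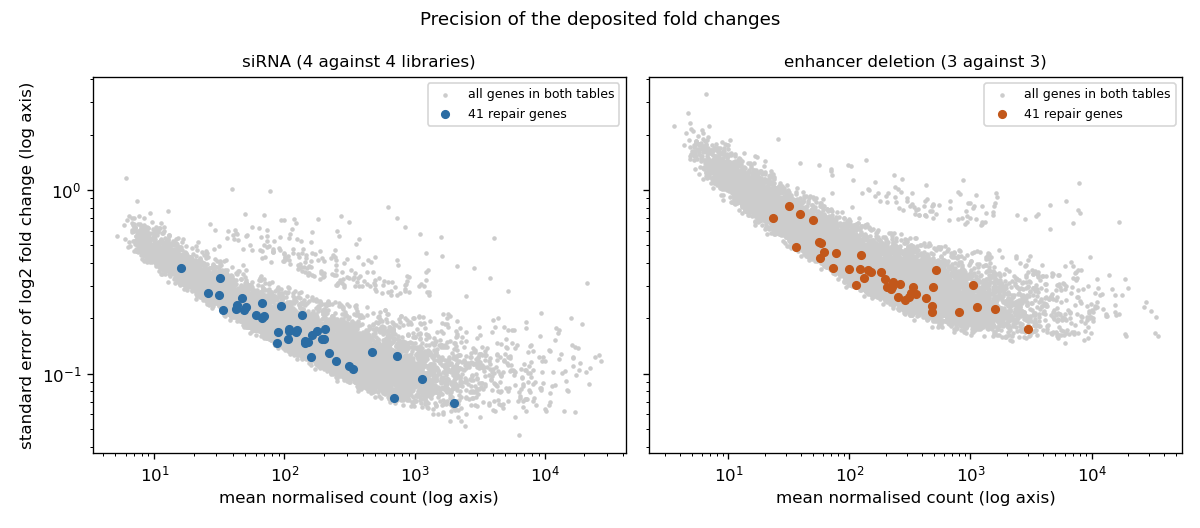
Standard error of the log2 fold change (vertical, log axis) against the mean normalised count (horizontal, log axis) per the authors' deposited tables, siRNA on the left and deletion on the right. Grey points are all genes in both tables and coloured points the 41 repair genes, which follow the main band of genes in both arms, at larger errors in the deletion arm.

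After the enhancer deletion, 2 of the 41 repair genes were called, both higher: RNF168, the ligase that ubiquitinates histone H2A around a break, and PARP1, the sensor of DNA nicks and ends. A call means that the authors' deposited table gives an adjusted p-value under 0.05. That is 4.88% of the repair genes, against 15.8% of all 11830 genes tested (7.40% called higher and 8.44% called lower). Neither gene was called with a Student t reference of 4 degrees of freedom (adjusted p-value 0.357) or with statistics divided by their robust SD (0.975), and no other gene was either. The median log2 fold change of the 41 was 0.11, with 27 above 0 and 14 below, against 0.00 and 50.3% above 0 for all genes. At an unadjusted p-value under 0.05 there were 7 repair genes, 5 above 0 and 2 below, against 29.7% of all genes. For 17 of the 41 the 95% interval lay within a 2-fold change in either direction, against 27.0% of all genes listed. For the other 24 the data could not exclude a change of that size.

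**Figure D2:**
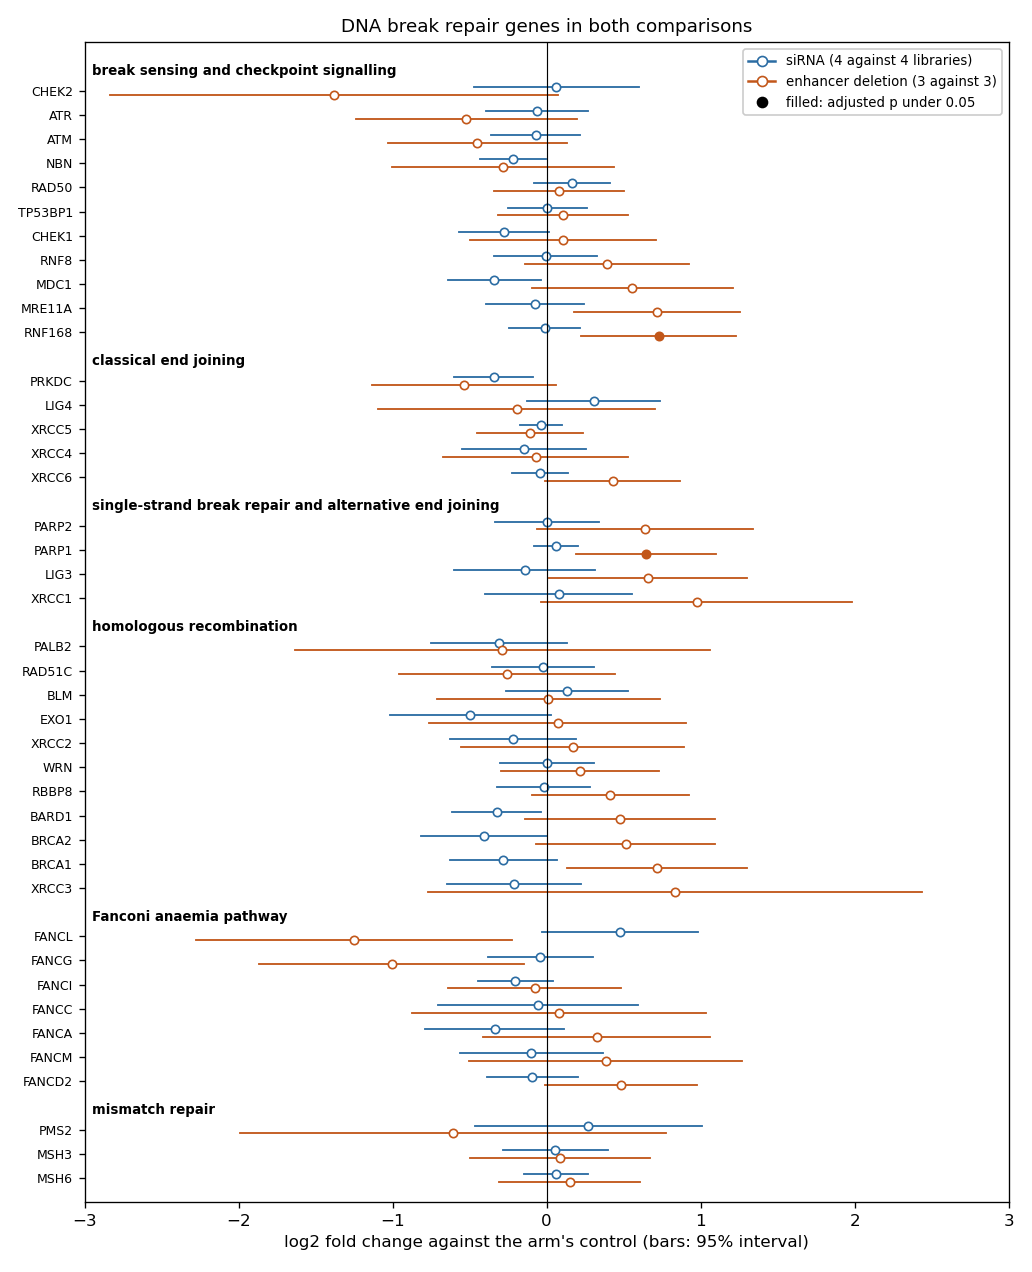
Log2 fold change against the arm's control (horizontal) of each of the 41 repair genes, grouped by role, with 95% intervals; blue is siRNA, orange the enhancer deletion, and filled points have an adjusted p-value under 0.05. The filled points are RNF168 and PARP1 in the deletion arm, and no siRNA point is filled.

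The break sensing and signalling group held 11 genes, of which 1 was called. For RNF168 (ENSG00000163961, chromosome 3, 196468783 to 196503768, minus strand, GRCh38) the authors' deposited table gave a mean of 430 normalised counts and, after the deletion, a log2 fold change of 0.73 (SE 0.26, adjusted p-value 0.0354). With equal groups, these imply means of about 324 in the control and 536 in the deletion libraries. RNF168 was thus at 166% of its control level (95% interval 117% to 235%). Its partner ligase RNF8, which acts before it, was at 0.39 (SE 0.27) per the authors' deposited table, and MDC1, the scaffold that docks RNF8, at 0.56 (SE 0.33), neither past the threshold. TP53BP1, which reads the RNF168 mark, was at 0.11 (SE 0.22) per the authors' deposited table, and its interval excluded a 2-fold change. In GENCODE the gene TUBGCP4 overlaps the 3′ end of TP53BP1 on the opposite strand, and whether counting used the strand is not given in the sources used here.

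The 3 genes of the sensor complex did not share a value. MRE11A, the nuclease, was at 0.72 (SE 0.28) per the authors' deposited table, and its adjusted p-value of 0.0565 lay just outside the threshold. Its implied means were about 242 and 398 normalised counts. RAD50, the ATPase that tethers ends, was at 0.08 (SE 0.22) per the authors' deposited table, and NBN, which links the complex to ATM, at -0.28 (SE 0.37). The large kinases were all below 0 in the authors' deposited table: ATM at -0.45 (SE 0.30), ATR at -0.52 (SE 0.37) and PRKDC, the catalytic subunit of the end joining kinase, at -0.54 (SE 0.30). None of these 3 was past the threshold, with adjusted p-values of 0.306, 0.346 and 0.226. With the trend of fold change on GC content of the 3′ end over all genes removed, they were nearer to 0, at -0.20, -0.26 and -0.33. Of the checkpoint kinases that act after ATR and ATM, CHEK1 was at 0.11 (SE 0.31) and CHEK2 at -1.38 (SE 0.74, adjusted p-value 0.196) per the authors' deposited table. CHEK2 had the lowest fold change of the 41, on a mean of 39.1 normalised counts and with a 95% interval of 14.0% to 105% of its control. It has 4 annotated pseudogene copies, so how its reads were assigned is uncertain.

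None of the 5 classical end joining genes was called after the deletion, and 4 of the 5 were below 0. With the GC trend removed, 4 of the 5 were above 0 and PRKDC was at -0.33. The Ku subunits, which bind the ends first, were at -0.11 (SE 0.18) for XRCC5 (Ku80) and 0.43 (SE 0.22) for XRCC6 (Ku70) per the authors' deposited table. XRCC5 had the smallest standard error of all 41 genes, and its interval ran from 73.0% to 118% of the control. For XRCC6 the interval ran from 99.3% to 182%, and XRCC6 has 5 annotated pseudogene copies. The ligase LIG4 and its partner XRCC4 were at -0.19 (SE 0.46) and -0.07 (SE 0.31) per the authors' deposited table.

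The 4 genes of single-strand break repair and alternative end joining, the group whose promoter stretches are shown above, all lay above 0 after the deletion, between 0.64 and 0.97. Their median was 0.65, the highest of the 6 roles, and 1 of the 4 was called. PARP1 (ENSG00000143799, chromosome 1, 226360691 to 226408079, minus strand, GRCh38) had a mean of 1133 normalised counts and a fold change of 0.64 on the log2 scale (SE 0.23, adjusted p-value 0.0392) per the authors' deposited table. The implied means were about 885 in the control and 1382 in the deletion libraries, and PARP1 was at 156% of the control (95% interval 114% to 214%). PARP1 has 2 annotated pseudogene copies, so how its reads were assigned is uncertain. PARP2, which makes the same polymer, was at 0.64 (SE 0.36, adjusted p-value 0.215) per the authors' deposited table. The scaffold XRCC1 was at 0.97 (SE 0.52, adjusted p-value 0.189) and the ligase LIG3 that it binds at 0.66 (SE 0.33, adjusted p-value 0.157), also in the authors' deposited table. The estimates of these 3 were close to that of PARP1 or above it, with wider errors.

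Homologous recombination was the other large group, with 11 genes, none called, 9 of them above 0 and a median of 0.22. After the deletion BRCA1, which promotes end resection, was at 0.72 (SE 0.30, adjusted p-value 0.0777) per the authors' deposited table, on implied means of about 371 and 611 normalised counts. Its partner BARD1 was at 0.47 (SE 0.31), BRCA2, which acts after resection, at 0.51 (SE 0.30), and PALB2, which bridges them, at -0.29 (SE 0.69) per the authors' deposited table. Of the resection genes, RBBP8 (CtIP) was at 0.41 (SE 0.26) and EXO1 at 0.07 (SE 0.43) per the authors' deposited table. The helicases BLM and WRN were at 0.01 (SE 0.37) and 0.22 (SE 0.26), and the strand exchange cofactors ranged from -0.26 (RAD51C) through 0.17 (XRCC2) to 0.83 (XRCC3, SE 0.82) per the authors' deposited table. XRCC3 had a mean of only 31.4 normalised counts.

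The 7 Fanconi genes ran from -1.25 to 0.48, and none was called. FANCL, the ubiquitin ligase subunit of the core complex, was at -1.25 (SE 0.52, adjusted p-value 0.0820) per the authors' deposited table, and FANCG, a core complex adaptor, at -1.01 (SE 0.44, adjusted p-value 0.0976). The implied means in control and deletion libraries were about 79.0 and 33.2 normalised counts for FANCL and 165 and 82.2 for FANCG, differences that did not pass the threshold. The genes of the proteins that this ligase modifies, FANCD2 and FANCI, were at 0.48 (SE 0.25) and -0.08 (SE 0.29) per the authors' deposited table. FANCA, FANCM and FANCC were at 0.33 (SE 0.38), 0.38 (SE 0.45) and 0.08 (SE 0.49) there. In mismatch repair, MSH6 and MSH3, which recognise the mispair together with a shared partner, were at 0.15 (SE 0.23) and 0.09 (SE 0.30) per the authors' deposited table. PMS2 was at -0.61 (SE 0.71) on 23.5 normalised counts, and it has 11 annotated pseudogene copies. Genes on the opposite strand also overlap the 3′ ends of FANCA, FANCI, LIG3 and MSH6, and AC116366.3 overlaps that of RAD50 on the same strand. MRE11A, FANCD2 and RBBP8 each have 1 annotated pseudogene copy.

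Fold changes after the deletion were higher where the last 500 bases of the transcript had a higher GC content (Spearman 0.309 across 11630 genes, which share libraries), and the value over the 41 repair genes was 0.170. In the quintile of genes with the lowest GC content the median log2 fold change was -0.24, and in the highest quintile 0.50. Of the repair genes, 22 of 41 lay in the 2 lowest quintiles, where 1.63% and 3.19% of all genes were called higher. RNF168, with 33.0% GC, and PARP1, with 34.2%, both lie in the upper of these. With the trend over all genes removed, RNF168 was at 0.96 (adjusted p-value 0.00539) and PARP1 at 0.86 (0.00557). BRCA1, with 36.0% GC, was then at 0.91 and past the threshold (adjusted p-value 0.0252), LIG3 at 0.89 (0.0525) and FANCD2 at 0.67 (0.0582). XRCC1 and XRCC3, with 53.4% and 62.0% GC, were then lower, at 0.66 and 0.23. The median of the 41 was 0.23 with the trend removed, against 0.02 for all genes, and 7 of the 41 changed sign, all within 1 standard error of 0 before: XRCC5, XRCC4, LIG4, XRCC2, BLM, FANCC and FANCI.

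**Figure D3:**
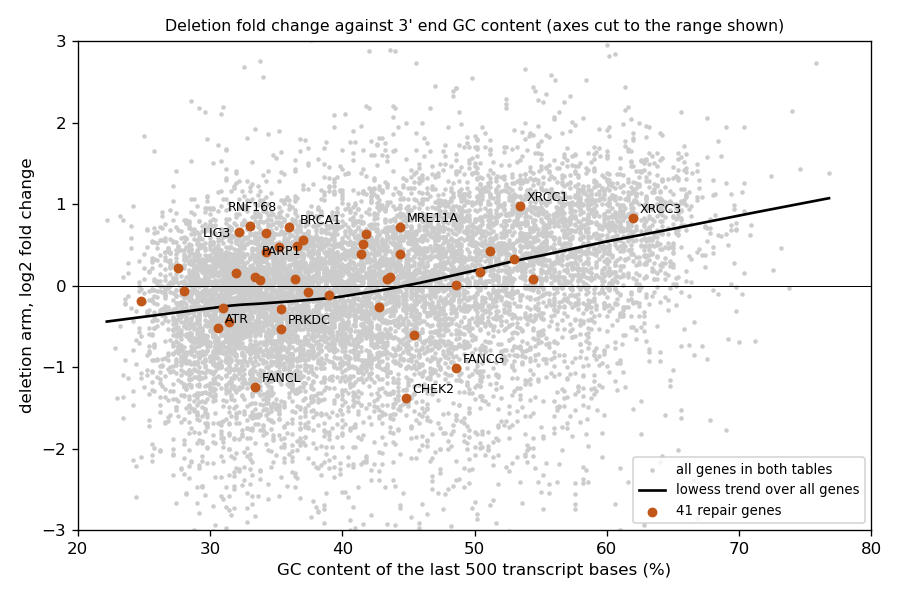
Log2 fold change after the deletion (vertical) against the GC content of the last 500 transcript bases in percent (horizontal), for all genes in both tables (grey), the trend over them (black line) and the 41 repair genes (orange). RNF168 and PARP1 lie above 0 at a GC content where the trend lies below 0, while XRCC1 and XRCC3 lie in the part where the trend is above 0.

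Under siRNA against CALCRL, none of the 41 repair genes was called in the authors' deposited table (its DESeq2 Wald test), against 3.46% of all 11261 genes (1.05% higher and 2.42% lower). At an unadjusted p-value under 0.05 there were 4, all below 0, against 12.0% of all genes: PRKDC, MDC1, BARD1 and NBN. PRKDC had the lowest adjusted p-value, 0.154, at a fold change of -0.34 on the log2 scale (SE 0.13) per the authors' deposited table, on implied means of about 522 normalised counts in the control and 412 under siRNA. MDC1 followed at -0.34 (SE 0.15, adjusted p-value 0.299), then BARD1 at -0.32 (SE 0.15) and NBN at -0.22 (SE 0.11) per the authors' deposited table. The intervals of 39 of the 41 lay within a 2-fold change in either direction, as did those of 87.7% of all genes, all but EXO1 (-0.50, SE 0.27) and PMS2 (0.27, SE 0.38) per the authors' deposited table. This comparison was thus precise enough to bound the repair genes more closely than the deletion did.

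Although none was called, 28 of the 41 repair genes were below 0 under siRNA and 13 above, with a median of -0.06 against 0.00 and 49.4% below 0 for all genes. By role, 9 of 11 recombination genes were below 0 (median -0.22), 6 of 7 Fanconi genes (-0.09), 8 of 11 sensing and signalling genes (-0.06) and 4 of 5 end joining genes (-0.04). All 3 mismatch repair genes and 3 of the 4 single-strand break repair genes were above 0. BRCA1 was at -0.28 (SE 0.18), BRCA2 at -0.40 (SE 0.21), CHEK1 at -0.28 (SE 0.15) and FANCI at -0.20 (SE 0.12) per the authors' deposited table. The 2 genes called after the deletion were close to 0 here, with RNF168 at -0.01 (SE 0.12) and PARP1 at 0.06 (SE 0.07) per the authors' deposited table. Their intervals ran from 84.4% to 116% and from 94.4% to 115% of the scrambled control. FANCL, at 0.48 (SE 0.26) per the authors' deposited table, was the highest of the 41.

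Stretches of 3′ UTR are shown for repair genes that hold GTAACAA, because this word is present in most of the genes called lower under siRNA. It was singled out in an earlier analysis of these same data. A search here on the same siRNA statistics returned it as the word of 7 bases whose carriers had the lowest values. Of the 266 genes called lower with an annotated 3′ UTR, 155 hold it (58.3%), a share that follows in part from this choice. Of the 41 repair genes, 4 hold it (9.76%), against 10.3% of all 10634 genes with an annotated 3′ UTR. The sites come from GENCODE 29 transcripts, 5′ to 3′, with the word in capitals. LIG3 holds a second copy, and NBN holds 1 that is not shown.
MRE11A: ctcctttctggGTAACAAgccctaacttct
LIG4: taaggccaaatGTAACAAtaaaaccctgtc
LIG3: agcagagctctGTAACAAaataatacacat
Under siRNA, per the authors' deposited table, MRE11A was at -0.07 (SE 0.16), LIG4 at 0.31 (SE 0.22), LIG3 at -0.14 (SE 0.23) and NBN at -0.22. The median of these 4 was -0.11 and that of the other repair genes -0.04, against -0.12 and 0.01 for all genes with and without the word. Because the word was chosen by the siRNA statistics of all genes, the gap over all genes is not a separate result.

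Set side by side, 18 of the 41 repair genes were below 0 under siRNA and above 0 after the deletion (43.9%, against 24.1% of the 10891 genes tested in both tables). In recombination this was 7 of 11 genes and in the Fanconi group 4 of 7. The arms share no libraries, and the difference of each gene's fold changes was tested, deletion minus siRNA, with adjustment over all 10891 genes. It passed the threshold for 2 repair genes (4.88%), against 13.7% of all genes (6.49% with the higher value after the deletion and 7.22% with the lower). BRCA1 was higher after the deletion than under siRNA, with a difference of 1.00 (SE 0.35, adjusted p-value 0.0342), and FANCL was lower, with a difference of -1.73 (SE 0.58, adjusted p-value 0.0301). Neither gene was called in either arm alone. For FANCL, VRK2 overlaps the 3′ end on the opposite strand, and VRK2 was at 0.40 (SE 0.37) after the deletion and -0.15 (SE 0.15) under siRNA in the authors' deposited tables, the opposite signs of FANCL.

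**Figure D4:**
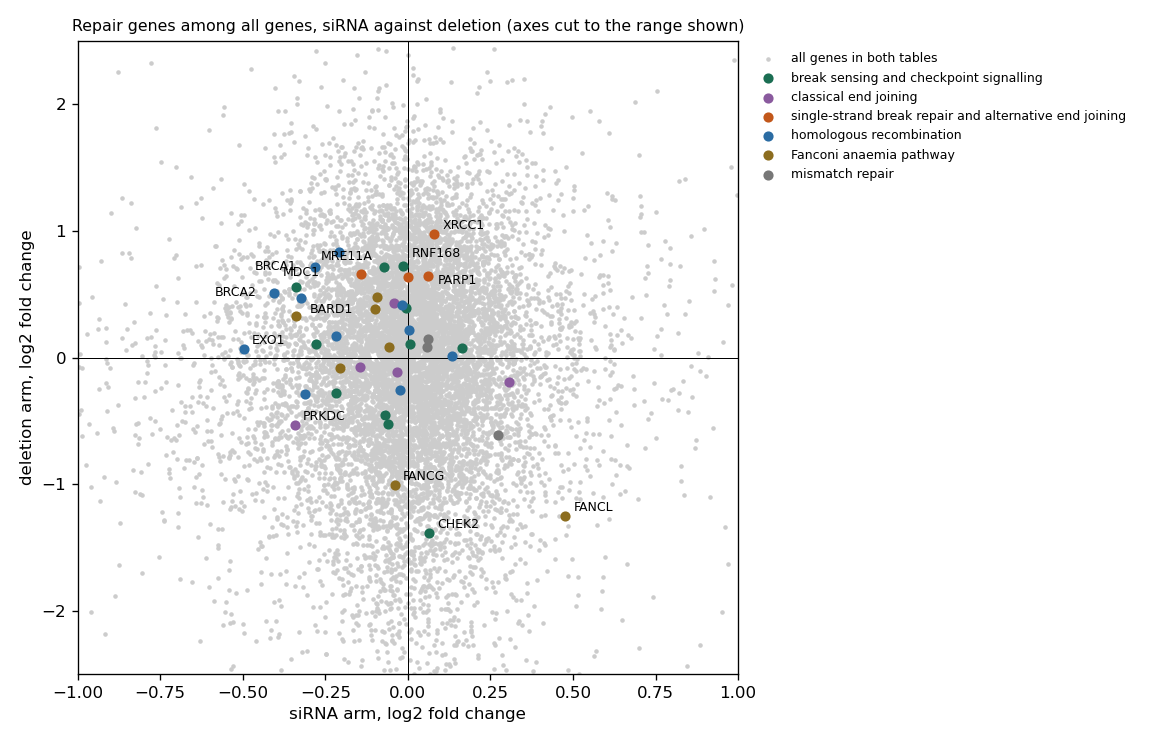
Log2 fold change after the deletion (vertical) against that under siRNA (horizontal) for all genes in both tables (grey) and for the repair genes, coloured by role. BRCA1, BRCA2, BARD1 and MDC1 lie close together at the upper left. FANCL lies farthest to the right of the 4 repair genes at the lower right, which include CHEK2, PMS2 and LIG4.

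Of genes that act with BRCA1, picked after their values were seen, BRCA2, MDC1 and BARD1 had differences of 0.80 to 0.92. None of these passed the threshold, and PALB2 had a difference near 0. The difference was 0.92 for BRCA2 (SE 0.36, adjusted p-value 0.0675), 0.89 for MDC1 (SE 0.37, 0.0802) and 0.80 for BARD1 (SE 0.35, 0.103), and 0.02 for PALB2 (SE 0.72, 0.989). For RBBP8 and RAD51C, also in recombination, the difference was 0.43 (SE 0.30, 0.348) and -0.23 (SE 0.40, 0.741). RNF168 stood at 0.74 (SE 0.28, 0.0573), MRE11A at 0.79 (SE 0.32, 0.0768) and PARP1 at 0.58 (SE 0.24, 0.0861). With the GC trend removed in both arms, 6 repair genes passed: BRCA1, BRCA2, BARD1, MDC1, RNF168 and PARP1, and FANCL did not (-1.51, adjusted p-value 0.0693). Over all genes 1204 passed then, against 1493 as computed. Delivery, control and time after treatment differ between the arms as well, and cannot be told apart here.

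Genes of the same pathways outside the 41 were read from a list of 114, of which 110 were tested in each arm. After the deletion 7 were called higher and 4 lower in the authors' deposited table, 11 of 110 against 15.8% of all genes, with a median of 0.13. C9orf142, the end joining factor PAXX, was higher at 1.50 (SE 0.46, adjusted p-value 0.0139) per the authors' deposited table. The Fanconi-associated genes C17orf70 (FAAP100), C19orf40 (FAAP24) and STRA13 (CENPX) were higher at 1.42 (SE 0.45), 1.61 (SE 0.58) and 1.13 (SE 0.30). Lower genes were PPM1D, the phosphatase that switches the checkpoint off (-2.16, SE 0.54), DDB1, a subunit of a ubiquitin ligase used in excision repair (-1.61, SE 0.40), RMI2, a partner of BLM (-1.73, SE 0.59), and TIPIN, a fork protein (-1.33, SE 0.37), all in the authors' deposited table. Under siRNA 2 of the 110 were called in the authors' deposited table, against 3.46% of all genes. These were ERCC5, an excision nuclease, higher at 0.77 (SE 0.19), and CDC25A, a phosphatase that the checkpoint removes, lower at -0.53 (SE 0.16).

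Lists of cell cycle and p53 target genes were read beside the repair genes. Over all genes tested, 15.8% were called after the deletion (7.40% higher and 8.44% lower) and 3.46% under siRNA. Of 37 replication genes of S phase, 27 were below 0 under siRNA (median -0.22, as for the recombination genes), and MCM7, CDC6 and POLD3 were called lower in the authors' deposited table. After the deletion 9 of the 37 were called higher and 2 lower, with a median of 0.12. The higher ones were led by CDT1, which licenses origins, at 1.74 (SE 0.40, adjusted p-value 0.000882), and MCM7, a helicase subunit, at 0.94 (SE 0.22, adjusted p-value 0.000910) per the authors' deposited table. The lower ones were MCM2 at -2.65 (SE 1.00) and CDC45 at -1.55 (SE 0.45), also in the authors' deposited table. Of 20 genes of G2 and mitosis none was called under siRNA (median -0.09, 3 at an unadjusted p-value under 0.05) and 2 were called higher and 1 lower after the deletion (median 0.34). Of 26 p53 targets tested, the authors' deposited table called 5 lower and 1 higher after the deletion. The lower ones included CCNG1 (-1.77, SE 0.40), MDM2 (-0.96, SE 0.22) and BTG2 (-2.14, SE 0.53), and the higher one was AEN (0.86, SE 0.25). Under siRNA 1 was called, MDM2, the ligase that degrades p53, lower at -0.56 (SE 0.07) per the authors' deposited table. CDKN1A, the p53 target that halts the cell cycle, was at -0.11 (SE 0.19) after the deletion and -0.05 (SE 0.11) under siRNA per the authors' deposited tables, neither past the threshold. The part of the cell cycle genes in the values of the repair genes was not tested.

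**Figure D5:**
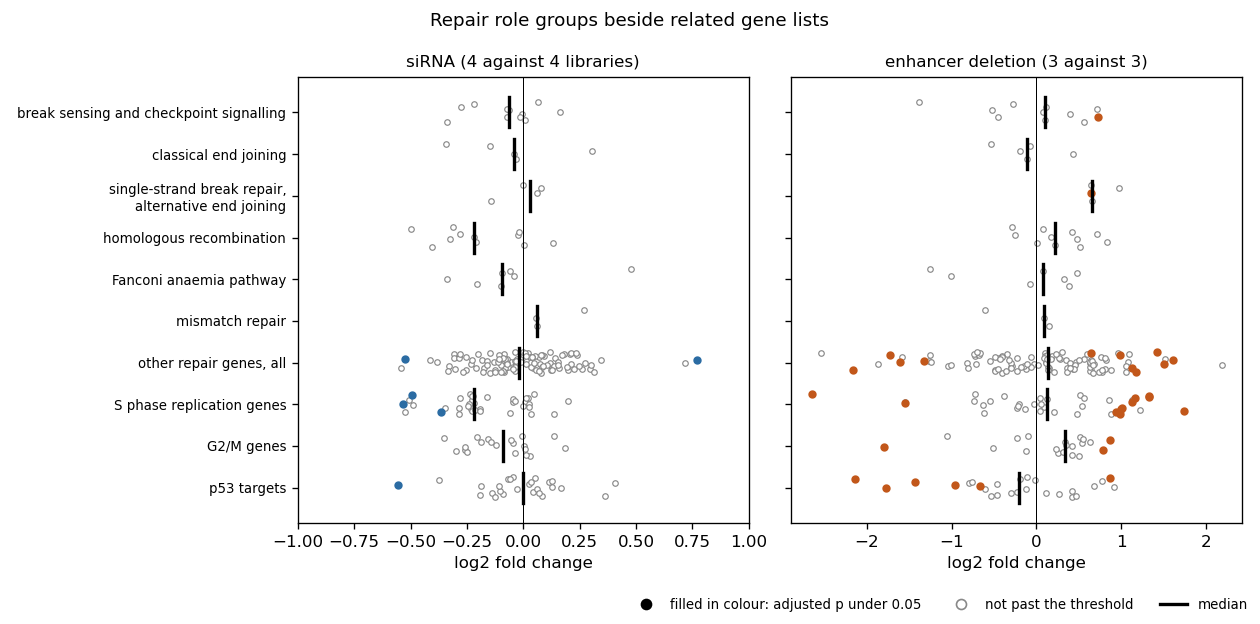
Log2 fold change (horizontal) of each gene in the 6 repair roles and in 4 related lists, under siRNA on the left and after the deletion on the right, on axes of different range. Filled points have an adjusted p-value under 0.05 and black bars are medians: the single-strand break repair group has the highest median of the roles on the right, and recombination and S phase genes have the lowest medians on the left.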

How the data were processed

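Each arm has 1 deposited table, the authors' comparison of its groups. According to file names and headers, the authors used featureCounts for counting and DESeq2 (Wald test, Benjamini-Hochberg adjustment) for testing. Each gene has a mean normalised count, a log2 fold change with standard error, a deposited Wald statistic (a score), and raw and adjusted p-values. Per the submitters' processing notes, edgeR 3.24.3 and hg19 were used, in roles not given in the sources used here. The aligner, the annotation and whether counting used the strand are also not given in the sources used here. Per the labels' protocols, libraries were QuantSeq FWD 3′ libraries, read as single ends of 86 cycles, in which reads come from near the polyadenylated end. The unit of each column was read with decimal commas. The deposited score equalled the fold change over its standard error, and the deposited adjusted p-value a Benjamini-Hochberg adjustment over the rows tested (5 genes of the deletion table had no p-value).

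Computed here were 95% intervals, group means implied by the mean and the fold change, and the difference between arms (normal reference, Benjamini-Hochberg adjustment over all genes tested in both). Gene positions, 3′ UTRs and the GC content of the last 500 bases came from GENCODE 29 on GRCh38, which may not be the authors' annotation, matched by gene ID, for 11099 and 11630 genes; for each gene the coding transcript with the longest 3′ UTR was used. The GC trend was a lowess fit of span 0.3 (statsmodels 0.14.6, scipy 1.17.1, Python 3.11.15). The code was tested on simulated data. Alternatives were GC trend removal, recentring on the median, a Student t reference with 6 or 4 degrees of freedom, division by the robust SD, and a mean count of at least 50.

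All 41 genes were to be accounted for, with full values for those called in an arm or in the difference and the 2 nearest to the threshold per arm, and examples by smallest standard error elsewhere; other genes named within the roles were picked after their values were seen. Of the other lists, at most 4 called genes per list and arm were to be named. The members and lists were chosen with earlier results of these data known. Of the genes called in the other lists, 1 is not reported here.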

Additional observations from a re-analysis of the deposited data

Results flagged for a closer look

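Among the repair genes, 2 had effects that differed between the siRNA and the deletion arm by a direct test of the difference. That is 4.88% of them, against 13.7% of all genes tested in both arms. For BRCA1 the difference, deletion minus siRNA, was 1.00 (SE 0.35), and for FANCL it was -1.73 (SE 0.58), with adjusted p-values of 0.0342 and 0.0301 over 10891 genes. Neither passed with statistics divided by their robust SD (adjusted p-value 0.992 for both). With the GC trend removed in both arms FANCL did not pass (0.0693).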

How the results depend on the processing

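No paired analysis was possible because no deposited value belongs to 1 library alone, so neither the replicate block nor leaving out each replicate was run. Under siRNA the count of called repair genes was 0 under all 5 alternatives, with all genes called at 390 as deposited, 5 with a Student t reference, 262 with the robust SD and 361 to 391 in the others, so a count of 0 says little there. After the deletion it was 2 as deposited and 0 with a Student t reference or with statistics divided by their robust SD. All genes called were then also 0, with 2 and 0 repair genes, and 1646 and 535 of all genes, at an unadjusted p-value under 0.05. RNF168 then had adjusted p-values of 0.357 and 0.975, and PARP1 the same. The difference between arms was past the threshold for 2 repair genes as computed, 6 with the GC trend removed and 0 after division by the robust SD. Of all genes, 1493, 1204 and 0 were past it. After division by the robust SD, 0 repair genes and 447 of all genes had an unadjusted p-value under 0.05. With a mean count of at least 50, MRE11A was past the threshold after the deletion (adjusted p-value 0.0452), and BRCA1 and RNF168 in the difference, where FANCL was not tested. RNF168, PARP1, MRE11A and BRCA1 after the deletion, PRKDC and MDC1 under siRNA, and the differences of BRCA1 and FANCL kept their sign with the GC trend removed and with recentring. The other alternatives leave fold changes as they are.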
